A study of Homo sapiens with 24 samples.

Results

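Super-enhancers that span the transcription start site (TSS) of exactly 1 protein-coding gene were examined in WT OCI-Ly7 cells. A deposited region was a member when its start-to-stop interval held the TSS of 1 GENCODE version 44 protein-coding gene, where the TSS is the 5′ end of the gene record. Of 2615 regions, 777 met this rule (29.7%), 367 held 2 or more such TSS (14.0%), and 1471 held none. Of those without a TSS, 626 lay wholly inside a gene body, 541 overlapped a gene end without its TSS, and 304 touched no protein-coding gene.

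OCI-Ly7 was derived from a human diffuse large B-cell lymphoma of germinal center type. The series holds 24 samples of CUT&RUN, an assay that cuts and sequences the DNA bound by an antibody, for H3K27ac, H3K4me1 and H3K4me3 in 4 genotypes with 2 replicates each. The genotypes were unedited control clones (WT), homozygous CREBBP R1446C knock-in (C), homozygous KMT2D knockout (K) and both lesions (CK), made by Cas9 ribonucleoprotein editing and single-cell cloning, so each line descends from 1 cell. All values below come from WT H3K27ac, whose 2 libraries were pooled into 1 signal column before deposition. No value therefore has a replicate error, no test over samples was possible, and the C, K and CK clones were not analysed here. Intervals given with shares are 95% Wilson intervals and cover counting error over regions or genes only, which are not replicates.

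H3K27ac is the acetylation that CREBBP and EP300 place on nucleosomes of active enhancers and promoters. Super-enhancers are clusters of such elements, stitched together when they lie close, and in B cells they are known to lie over genes of B-cell identity. The ranking program was set to leave out peaks around each TSS and then stitches the remaining peaks. A region that spans a promoter thus in most cases has acetylated windows on both sides of it. The places of the inner windows were not given, so whether the promoter itself falls in a gap between them was not tested. The sequences below show both parts of such a region, the spanned promoter and the outermost acetylated window.

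The promoters shown belong to members with the highest signal overall or in a B-cell gene list. They differ in their CpG dinucleotides, which are in capitals, and each stretch ends just before the annotated transcribed sequence. They come from the RefSeq promoter table (GRCh38.p14), which matched 618 of the 777 spanned genes by symbol; ZMIZ1 was not matched, and RBFOX3 was left out because its RefSeq TSS lay 47924 bp from the GENCODE one.
ARID1B promoter, chr6:156775776-156776019, plus strand: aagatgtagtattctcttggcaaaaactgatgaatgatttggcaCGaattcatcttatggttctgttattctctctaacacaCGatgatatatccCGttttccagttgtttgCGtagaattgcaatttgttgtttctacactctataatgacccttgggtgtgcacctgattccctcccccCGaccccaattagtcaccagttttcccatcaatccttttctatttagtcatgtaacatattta
RUNX3 promoter, chr1:24965122-24965260, minus strand: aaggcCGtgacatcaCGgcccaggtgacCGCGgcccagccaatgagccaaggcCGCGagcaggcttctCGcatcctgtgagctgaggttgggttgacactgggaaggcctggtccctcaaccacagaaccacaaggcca
SYK promoter, chr9:90801350-90801599, plus strand: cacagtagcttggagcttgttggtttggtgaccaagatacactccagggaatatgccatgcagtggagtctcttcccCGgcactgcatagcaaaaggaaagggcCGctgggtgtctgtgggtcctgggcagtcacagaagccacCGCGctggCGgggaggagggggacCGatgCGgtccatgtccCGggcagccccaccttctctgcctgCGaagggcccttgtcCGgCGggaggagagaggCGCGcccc
TNFRSF13B promoter, chr17:16972119-16972368, minus strand: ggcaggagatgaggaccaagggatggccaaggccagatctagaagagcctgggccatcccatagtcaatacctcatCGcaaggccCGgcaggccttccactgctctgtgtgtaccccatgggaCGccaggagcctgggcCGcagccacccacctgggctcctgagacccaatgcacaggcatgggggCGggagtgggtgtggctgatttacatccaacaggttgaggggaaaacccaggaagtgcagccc
CCR6 promoter, chr6:167111545-167111794, plus strand: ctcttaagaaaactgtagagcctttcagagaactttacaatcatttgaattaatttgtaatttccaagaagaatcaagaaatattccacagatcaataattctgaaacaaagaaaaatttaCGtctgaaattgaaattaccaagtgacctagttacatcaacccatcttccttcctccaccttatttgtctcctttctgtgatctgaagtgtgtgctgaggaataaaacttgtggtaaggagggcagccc

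The SYK promoter had 13 CpGs in 250 bases, a GC content of 64.0% and a CpG observed over expected ratio of 0.514. The RUNX3 stretch had 7 in 139 bases and a ratio of 0.503, and the ARID1B stretch 5 in 244 bases and a ratio of 0.578. The TNFRSF13B stretch had 5 CpGs in 250 bases at 62.0% GC, a ratio of 0.209, and the CCR6 stretch had 1 CpG at 35.6% GC, a ratio of 0.128. None of these 5 stretches reached the ratio of 0.6 used below for a CpG island. The rule below is applied to another window, which is placed on the gene record TSS and runs past it. In that window the SYK promoter had a GC content of 75.7% and a ratio of 0.839, so it met the rule. ARID1B, RUNX3, TNFRSF13B and CCR6 had ratios of 0.473, 0.441, 0.204 and 0.154 there and did not.

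The next stretches are parts of the first or last constituent of a region, a window of 401 bp. Capitals mark an exact match to the AP-1 motif TGAGTCA or to the PU.1 core GAGGAAGT on either strand. They are intronic or intergenic, read from hg38.
SYK left edge, chr9:90770368-90770474, plus strand: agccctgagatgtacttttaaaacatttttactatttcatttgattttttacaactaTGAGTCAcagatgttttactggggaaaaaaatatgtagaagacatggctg
SYK right edge, chr9:90911156-90911236, plus strand: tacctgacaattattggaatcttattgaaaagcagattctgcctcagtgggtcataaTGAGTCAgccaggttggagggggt
RBFOX3 right edge, chr17:79631578-79631697, plus strand: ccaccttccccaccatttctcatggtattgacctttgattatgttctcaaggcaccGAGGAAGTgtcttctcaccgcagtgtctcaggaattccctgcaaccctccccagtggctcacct

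Both outermost windows of the SYK region held 1 AP-1 match, and the right window of the RBFOX3 region, which is its upstream edge, held 1 PU.1 match. The outermost windows of ZMIZ1, ARID1B, CCR6, TNFRSF13B and RUNX3 held no match to AP-1, PU.1 or the octamer ATGCAAAT.

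The 777 regions were much like the other super-enhancers in median strength and size. The ROSE signal, a relative unit that sums H3K27ac over the region, had a median of 19908 (interquartile range 14150 to 31664, range 10621 to 140629), beside 19688 in the other regions and a cutoff of 10617. Stitched length had a median of 61.6 kb (41.4 to 91.6), beside 60.5 kb, and signal per bp a median of 0.343, beside 0.342. They held 16 constituents at the median and 15676 in all, or 30.7% of all constituents, and 31.2% of the summed signal. Spanning 1 promoter was thus the most frequent of the 5 arrangements, with a median signal near that of the other regions.

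The share of one-promoter regions was higher at the top of the ranking. They made up 97 of the 262 regions of highest signal (37.0%, 31.4 to 43.0), against 393 of 1307 (30.1%) in the upper part of the table, split at the median rank, and 384 of 1308 (29.4%) in the lower part. When all regions were split by length into 5 equal classes, they made up 171 of 523 in the longest class, 98.5 to 552 kb (32.7%), and 27.9% in the shortest. Length moves with signal in this table, and its part in the share at the top was not tested.

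Within length classes, signal was compared with that of regions lying wholly inside a gene body. In the shortest class the median signal was 13884 for one-promoter regions and 15739 for gene-body regions, and in the next class 15208 and 17663. In the class of 70.4 to 98.4 kb the order was turned, with 25091 (17860 to 33553) against 18987 (14799 to 27318), and in the longest class the medians were 40713 and 37420. As log2 differences these were -0.18, -0.22, -0.01, 0.40 and 0.12 from short to long, with a mean of 0.02, and in every class the interquartile ranges overlapped. Short super-enhancers around a promoter therefore had lower medians than those inside genes, and long ones higher medians, but no replicate is at hand to set an error on either. The order was not particular to 1 promoter. Regions with 2 or more had medians of 13473 and 16225 in the 2 shortest classes and 22752 and 37695 in the 2 longest. At 70.4 to 98.4 kb gene-body regions had the lowest median of any class of region.

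**Figure D1:**
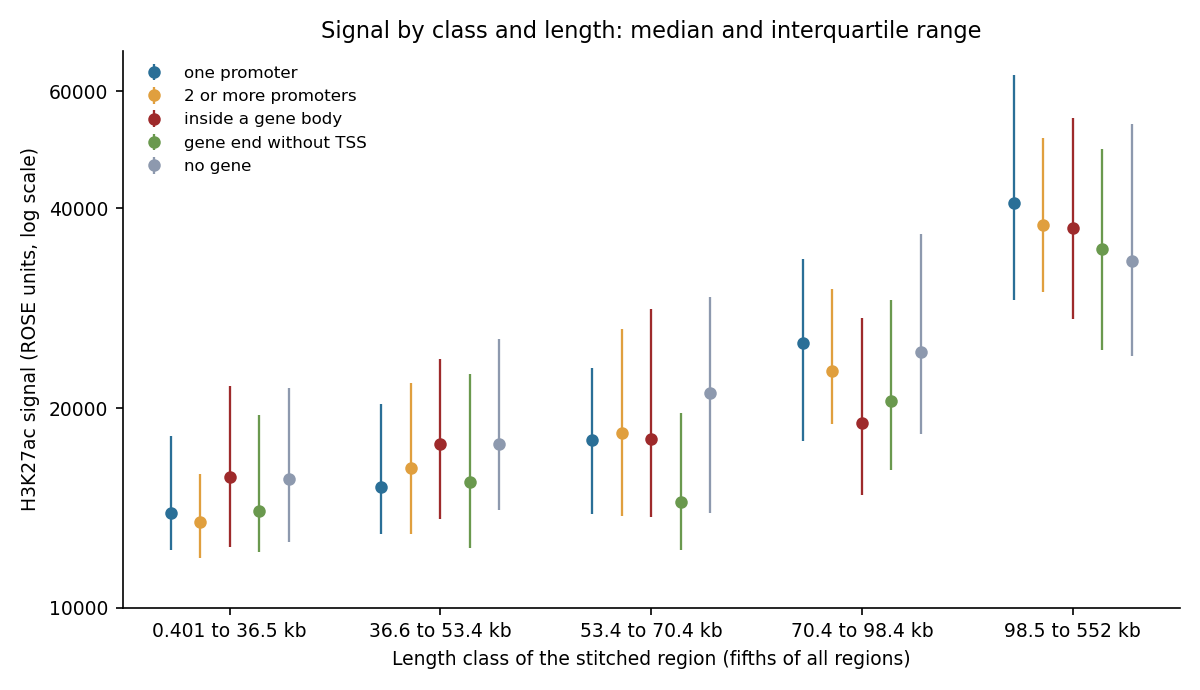
H3K27ac signal (ROSE units, log axis) by class of region in the 5 length classes, with points at medians and bars over interquartile ranges. One-promoter regions lie below gene-body regions in the 2 shortest classes and above them in the 2 longest, for example 25091 against 18987 at 70.4 to 98.4 kb, with overlapping bars throughout.

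The 15 strongest one-promoter super-enhancers spanned promoters of genes of varied function. The highest signal was over ZMIZ1, a transcriptional coregulator of the PIAS-like family, at chr10:79062848-79337783 (signal 140629, rank 5, 85 constituents). The whole gene lay inside, and the region ran 6.12 kb upstream and 269 kb downstream of the TSS. ARID1B, a subunit of the BAF chromatin remodelling complex, followed at chr6:156752660-157091058 (135630, rank 6), reaching 315 kb into the gene and covering 72.5% of it. RBFOX3, a neuronal splicing factor, had the longest region at chr17:79079455-79631849 (132022, 552 kb), whose signal per bp of 0.239 was below the members' interquartile range of 0.26 to 0.496. In these 3 regions over 90% of the bases lay in the spanned gene, at 90.0, 93.1 and 94.4%.

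SMNDC1, which encodes a spliceosome component, had the next highest signal (124295, rank 9) and the opposite layout. Its region at chr10:110300445-110447662 reached 143 kb upstream and 4.49 kb into the gene, so that 3.05% of the region lay in SMNDC1 and none in another protein-coding gene. TOP1, encoding topoisomerase I, lay whole inside its region (123021), with 47.0 kb upstream and 106 kb downstream. GPR160, an orphan G protein-coupled receptor, also lay whole inside (121849), but 45.0% of that region was in PHC3, a Polycomb subunit gene, and 24.8% in GPR160. The gene whose promoter is spanned was therefore not always the gene that most of the region covered.

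MCTP2, encoding a membrane protein with C2 domains, had its TSS 0.46 kb inside the upstream edge of its region (108303), which then ran 115 kb into the gene. IGF2BP3, an RNA-binding protein, had a signal of 102405 with 8.41 kb upstream and 136 kb downstream. MAP2K6, a kinase that activates p38, had 91737, GNG7, a G protein gamma subunit, 90287, and CARMIL1, a regulator of actin capping, 90224. All 5 of these regions lay mostly downstream of the TSS.

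The remaining members among the 15 highest varied in layout. DENND3, an exchange factor for Rab proteins, had a signal of 98491 with 60.8 kb upstream and 109 kb downstream. SEPTIN9, a cytoskeletal GTP-binding protein, had 90126 with 85.8 and 89.0 kb, close to even. TRAK1, an adaptor in mitochondrial transport, had 88347 and lay mostly downstream, with 16.1 kb upstream and 142 kb downstream of the gene record TSS and its canonical transcript starting 77.6 kb from that point. The record ENSG00000276418, which has no symbol, had 100062, and its region lay 100% inside TPD52, so the promoter it spans is that of an overlapping gene model.

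**Figure D2:**
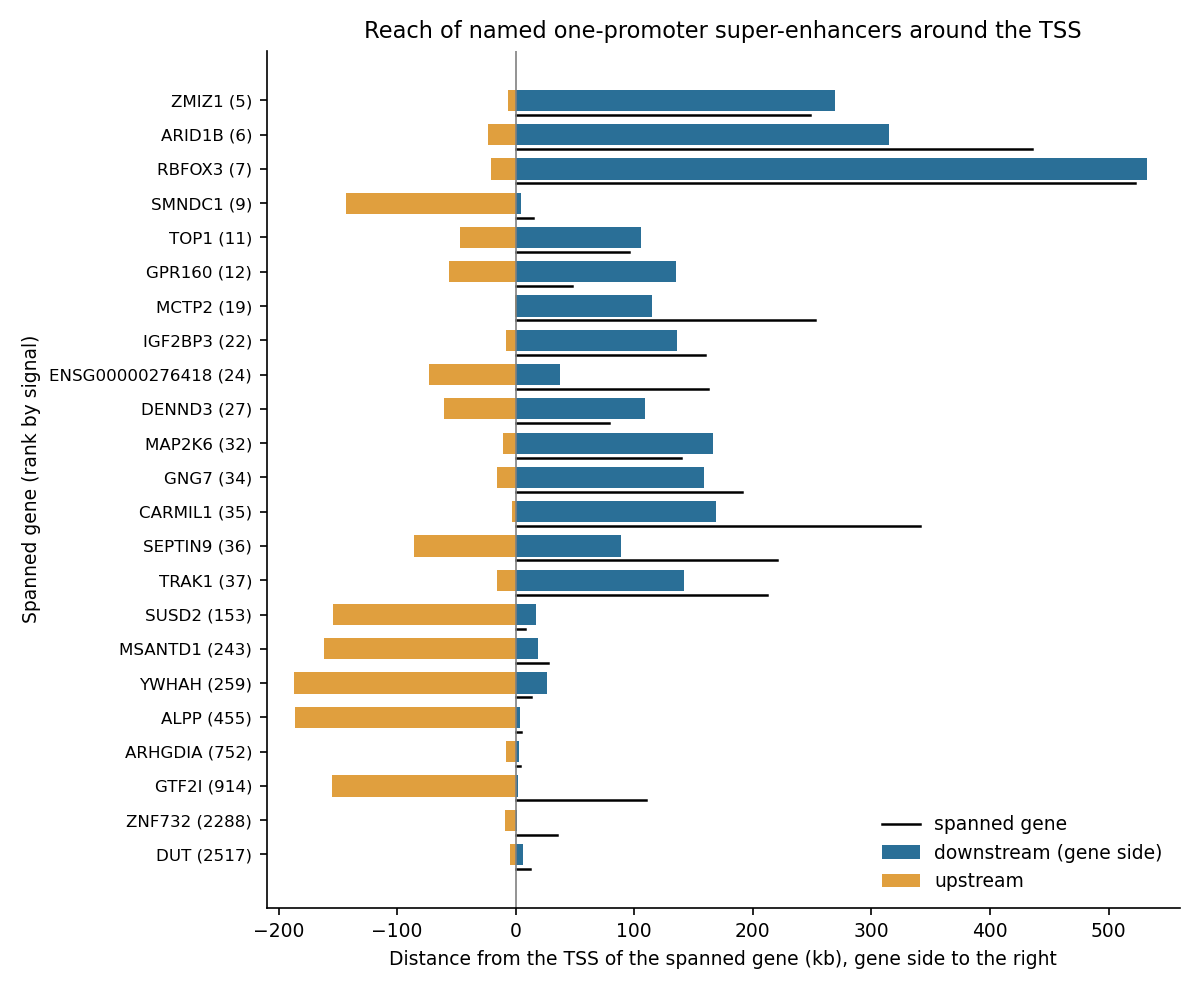
Reach of the one-promoter regions with the highest signal, greatest or smallest length, or longest upstream stretch, in kb from the TSS of the spanned gene with the gene side to the right. Blue bars are downstream and orange bars upstream stretches, black lines the genes; RBFOX3 reaches 532 kb downstream and YWHAH 187 kb upstream.

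One-promoter regions extended further into the gene than away from it. The stretch downstream of the TSS had a median of 35.3 kb (18.2 to 63.1) and the stretch upstream 19.5 kb (7.91 to 36.9). The gene side was longer in 509 of 777 regions (65.5%, 62.1 to 68.8). It was over 5 times longer in 203 (26.1%), while the upstream side was over 5 times longer in 58 (7.46%). As the gene record begins at the 5′-most start, any later start lies on the gene side by construction, and with the start of the canonical transcript instead the share was 68.0%. The canonical start of the spanned gene also lay inside the region in 729 of 777 cases (93.8%), and the exceptions among the named genes were CCR6, RUNX3, FKBP5 and GTF2I. As a region that reached a second protein-coding TSS was not a member, reach stopped short of the next gene start on either side. The part of that rule in the lean towards the gene, and in its change with gene length below, was not tested.

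The lean towards the gene varied with the length of the gene. Among spanned genes of at most 18.2 kb the gene side was longer in 98 of 195 regions (50.3%), with medians of 20.5 kb downstream and 21.5 kb upstream. The spanned genes were split into 4 classes of length, and in the middle classes the share was 67.0 and 67.5%, and among genes of 85.9 kb or more it was 150 of 194 (77.3%), with 51.1 and 16.6 kb. The median signal was 16670 over the shortest genes and 26758 over the longest, but median region length also went from 54.0 to 82.1 kb, and its part in the signal was not tested. Upstream reach thus stayed between 16.6 and 21.5 kb at the median, and the difference was on the gene side.

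Spanned genes were longer than the genome's genes, with a median of 41.8 kb against 27.5 kb over all 19970 protein-coding genes. Of the spanned genes 42.1% exceeded 50 kb, against 33.9% of all. Their TSS also lay further from others, as 52.1% had no other protein-coding TSS within 50 kb, against 31.8% of all. A member holds no second protein-coding TSS by definition, and the part of that rule in gene length was not tested. The whole gene lay inside the region in 392 cases (50.5%). The downstream edge fell in the first intron of the canonical transcript in 95 (12.2%), in a later intron in 166 (21.4%), and in an exon or outside that transcript in 124 (16.0%). By bases, 47.2% of the members' 58.1 Mb lay in the spanned gene, 15.6% in its first intron, 25.7% only in other protein-coding genes, and 27.1% outside such genes.

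The regions that reached furthest upstream lay over neighbouring genes. The region that spans the promoter of YWHAH, a 14-3-3 protein, reached 187 kb upstream, and 93.2% of it lay in another gene record, ENSG00000285404. That of ALPP, placental alkaline phosphatase, reached 186 kb upstream with 80.1% in DIS3L2, an RNA exonuclease gene. Those of MSANTD1 (162 kb), GTF2I (155 kb), a general transcription factor, and SUSD2 (154 kb) lay 89.3% in HTT, 68.3% in GTF2IRD1 and 88.4% in CABIN1. In each of these 5 the spanned gene held 10.4% of the region or less.

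This layout was not rare, since 244 of 777 regions (31.4%, 28.2 to 34.8) had more bases in some other protein-coding gene than in the spanned one. In those 244 the gene side was longer in 95 (38.9%), and in the other 533 in 414 (77.7%). Part of that contrast follows from the definition, because bases in the spanned gene lie on its gene side. Another 347 regions (44.7%) overlapped no protein-coding gene but the spanned one. Long downstream stretches, over RBFOX3 (532 kb), ARID1B (315 kb), ZMIZ1 (269 kb) and HIP1 (227 kb), all lay mainly in the spanned gene.

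**Figure D3:**
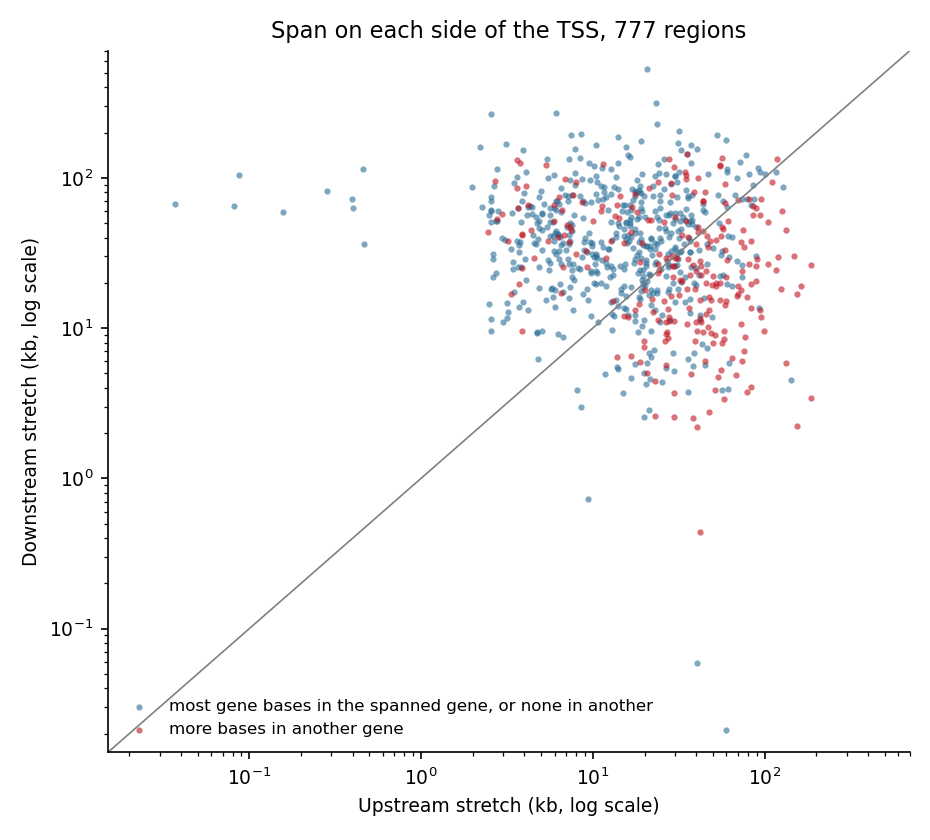
Stretch upstream and downstream of the TSS in kb, both log axes, with 1 point per region and the line of equal stretches; red points have more bases in another protein-coding gene than in the spanned gene. Of 777 regions 509 lie above the line, and a TSS closer than 2500 bp to an edge is rare (21 regions).

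The TSS was seldom close to an edge. It lay less than 2500 bp from one in 21 regions (2.70%) and less than 10 kb in 312 (40.2%), with a median of 13.1 kb to the nearer edge. The study's setting left out peaks within 2500 bp of a TSS, and the part of that setting in this spacing was not tested. The members nearest to failing the rule spanned the TSS of ZFP90, CPT1A and MOB2 by 21, 37 and 59 bp. Just outside the rule, regions of rank 1475, 53 and 1934 missed a TSS by 42, 60 and 83 bp, and 42 of the 1471 regions without a TSS had one less than 2500 bp outside.

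Small, dense regions formed a different end of the class. The highest signal per bp among those of at least 5 kb was over ARHGDIA, an inhibitor of small GTPases, at 2.48 with 4 constituents in 11.5 kb. AKAP13, a kinase anchoring protein, followed at 2.06 over 30.4 kb, which covered 6.93% of its 369 kb gene and ended in the first intron. FKBP5, a co-chaperone of steroid receptors, had 1.73, and CCR6 and SMAD3, a chemokine receptor and a TGF-beta signal transducer, 1.64 each. The shortest regions were those of ZNF732 (10.2 kb), a zinc finger gene, DUT (11.0 kb), encoding dUTPase, and ARHGDIA. Signal per bp has length in its denominator, and a short region enters the table only when it is dense.

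B-cell genes were placed next, beside the background that 3.89% of all protein-coding genes (777 of 19970) had their TSS in a one-promoter region and 9.44% were overlapped by a super-enhancer without their TSS inside one. Of 112 genes in 4 B-cell lists, 14 had their TSS in a one-promoter region (12.5%, 7.59 to 19.9), 4 in a region with 2 or more, and 33 were overlapped only away from the TSS (29.5%). With the start of the canonical transcript the first share was 10.7%, against 4.15% of all genes. With the starts of every protein-coding transcript it was 27 of 112 (24.1%, against 5.55% of all genes), and the share overlapped only away from a TSS was 18.8%; this alternative was chosen after seeing the data. The lists differed from one another in which arrangement they showed.

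The immune synapse and antigen presentation list had the largest share spanned singly by gene record TSS, while 19 of its 30 genes were not overlapped. Of 30 genes of the immune synapse list, 8 had their TSS in a one-promoter region (26.7%), none in a region with 2 or more, and 3 (CD86, CIITA and IL21R) were overlapped away from the TSS. Of its antigen presentation genes HLA-DMB was spanned, while HLA-DRA, HLA-DOB, HLA-DPB1, CD74, CTSS, TAP1 and B2M were not overlapped. The same 8 genes were found with the canonical start, and 10 (33.3%) with every transcript start, where the chromatin regulators had 7 of 20 (35.0%); the difference between lists was not tested. TNFRSF13B, the receptor TACI for B-cell survival ligands, had a signal of 62727 at chr17:16870462-17002158, with 30.0 kb upstream and 102 kb downstream. IL4R, the interleukin-4 receptor, had 61902, with 35.7 and 72.8 kb, and SLAMF1, a homophilic receptor of lymphocytes, 53444, with 27.8 and 40.2 kb. In these 3 the whole gene lay inside and the region ran past both of its ends.

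The other members of that list were weaker. HLA-DMB, which helps to load peptides onto class II molecules, had 25282 over 23.3 kb, and PDCD1LG2, a ligand of the receptor PD-1, had 24051 over 133 kb, the lowest density of the 8 at 0.181 per bp. IFNGR1, an interferon-gamma receptor chain, had 15560, and its region lay mainly upstream (38.1 kb against 5.58 kb). The receptor CD40 and the adhesion molecule ICAM1 had 15096 and 11707, with near even sides of 10.7 and 11.0 kb and of 12.9 and 12.4 kb. These 8 ranged from rank 120 to rank 2394 of the table.

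B-cell receptor signalling genes were more often covered away from the gene record TSS than spanned singly, an order that turned when every transcript start was used. Of 30 such genes 4 were spanned singly (13.3%), 1 lay in a region with 2 or more, and 11 were overlapped away from the TSS (36.7%). The other 14 were not overlapped. With the starts of every protein-coding transcript 9 were spanned singly (30.0%) and 7 overlapped away (23.3%). SYK, a kinase recruited to the activated receptor, had the highest signal among the 14 singly spanned B-cell list genes, 88113 at chr9:90770074-90911236, with the whole gene inside. PIK3CD, the catalytic subunit p110 delta, had 17925. INPP5D, the lipid phosphatase SHIP1, had 14160, and VAV2, a guanine nucleotide exchange factor, 12040. For INPP5D and VAV2 the region covered 7.67 and 9.56% of the gene and ended in the first intron.

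Transcription factors of B cells were likewise more often covered away from the TSS than spanned singly. The largest group, 15 of 32, was not overlapped, among them BCL6, IRF4, IRF8, PRDM1, SPIB and TCF3. Of 32, RUNX3 alone had its TSS in a one-promoter region (3.12%), MEF2B and POU2F2 lay in regions with 2 or more, and 14 were overlapped away from the TSS (43.8%), among them PAX5, EBF1, BACH2, IKZF1, SPI1, ETS1 and FOXO1. The RUNX3 region had a signal of 48145 and reached 88.8 kb upstream and 30.1 kb downstream, but the canonical RUNX3 transcript starts 34.8 kb from the gene record TSS and outside the region. With the canonical start, 0 of 32 were in a one-promoter region and 17 were overlapped away from it (53.1%). With the starts of every protein-coding transcript, 6 of 32 were (18.8%, against 5.55% of all genes): BACH2, BCL11A, ETV6, IKZF1, MEF2C and RUNX3. The placing of this list thus depends on which start is taken, whereas the immune synapse list gave 8, 8 and 10 of 30.

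Other lists held few members. Of 20 migration and G protein genes CCR6 was spanned singly and 5 were overlapped away from the TSS. The CCR6 region, at chr6:167073669-167114323, had a signal of 66538 from 8 constituents and reached 38.1 kb upstream and 2.52 kb into the gene record, and the canonical start, 11.3 kb away, lay outside. Of 22 survival and cell cycle genes 1 (4.55%) was spanned singly, a share near the background, and 3 were overlapped away from the TSS.

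Chromatin regulators were spanned at a share of 4 in 20 (20.0%), and 7 more were overlapped away from the TSS. Besides ARID1B these included DNMT3A, a DNA methyltransferase (19632, 47.0 kb of 57.2 kb upstream), and CREBBP. The CREBBP region, at chr16:3849461-3883334, had a signal of 13617 at rank 2044 and covered 20.1% of the gene, with 2.62 kb upstream. A further, stronger member lay over the same gene: the region that spans the promoter of TRAP1, a mitochondrial chaperone, at chr16:3624015-3828089 (66875, rank 101) had 50.5% of its bases in CREBBP. CREBBP is the acetyltransferase gene mutated in the C and CK clones, and its level there was not analysed here. KMT2D, knocked out in the K clones, lay in a region with 2 or more promoters.

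Control lists held 3 members in all. None of 20 genes of other tissues had its TSS in a one-promoter region and 1, MBP, was overlapped away from it. Of 20 housekeeping genes 2 were spanned singly, the 14-3-3 gene YWHAZ (31120) and the chaperone gene HSP90AB1 (10706), a share of 10% that is not far below that of the B-cell lists. Of 10 markers of cells that a pure culture should lack, such as T and myeloid cells, 1 was spanned, PECAM1 (14435), an adhesion molecule that some leukocytes also carry. This marker list was short, and CD7 and CD5, which are given below as members with higher signal, were not on it. With lists of 10 to 32 genes, 1 gene moves a share by several percentage points.

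**Figure D4:**
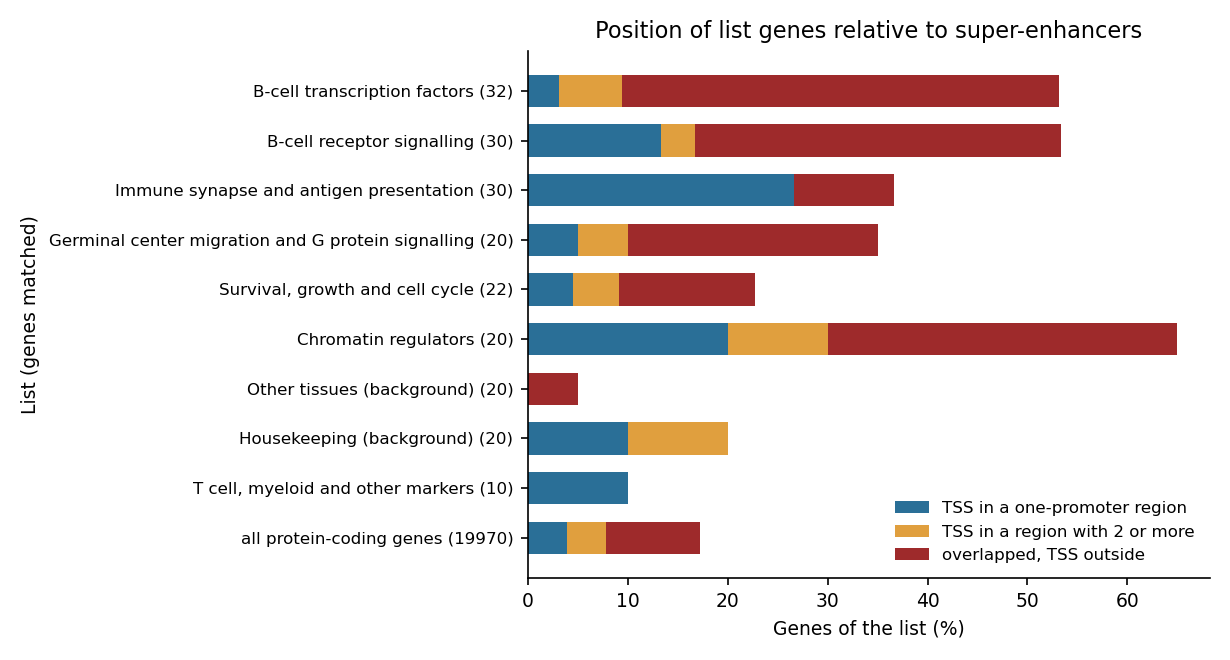
Percentage of genes of each list with their TSS in a one-promoter region (blue), in a region with 2 or more promoters (orange), or overlapped by a super-enhancer with the TSS outside (red); numbers of genes in parentheses. The immune synapse list has the longest blue bar (26.7%) and the B-cell transcription factors the longest red one (43.8%), beside 3.89 and 9.44% of all protein-coding genes.

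Members were also grouped by the letters before the first digit of their symbols, keeping groups with at least 5 members. Of 91 genes named CD with a number, 10 were spanned singly (11.0%). Besides CD40 these included CD7 (31234), CD27, a co-stimulatory receptor of memory B cells (30123), CD5, a brake on antigen receptor signalling (29880), CD47, the ligand of the phagocyte receptor SIRP alpha (24368), and CD69, an early activation marker (12645). The remaining ones were CD1C, CD82, CD248 and CD300A. CD5 had a long region of 151 kb, 93.8 kb of it upstream, and CD69 a short one of 23.2 kb. The shares were 2.72% of ZNF zinc finger genes (14 of 515), 3.36% of TMEM membrane protein genes (8 of 238), 5.09% of SLC transporter genes (19 of 373) and 6.41% of GPR receptor genes (5 of 78), beside the background of 3.89%. Symbols with only MAP before the first digit, mostly kinases of signalling cascades, gave 5 of 48 (10.4%). Symbols with only CDK before the first digit gave 6 of 28 (21.4%), of which CDK17 and CDK18 are kinases. The others, CDK5R1, CDK5RAP1, CDK5RAP2 and CDK5RAP3, are named after CDK5 or its regulatory subunit.

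Spanned promoters were more often CpG islands by sequence than promoters in general. A promoter, from 250 bases before to 50 after the TSS, was counted as a CpG island when its GC content was at least 50% and its observed over expected CpG ratio at least 0.6. This held for 503 of 777 spanned promoters (64.7%, 61.3 to 68.0), for 529 of 783 in regions with 2 or more TSS (67.6%), and for 55.3% of all protein-coding promoters. The median CpG ratio was 0.783 in members and 0.697 over all genes. With the canonical start the shares were 78.4 and 65.5%. Regions over CpG island promoters and over other promoters had similar medians of signal, 19890 and 20128, and the gene side was longer in 68.6 and 59.9% of them.

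The acetylated windows at the edges had another composition than the promoters between them. The 1554 outermost windows had a median GC content of 50.1% and a CpG ratio of 0.212, and 66 (4.25%) met the CpG island rule. The AP-1 motif TGAGTCA lay in 6.76% of them (5.61 to 8.11), beside 7.36% of the outermost windows of all regions, 6.65% of equal windows at 3 evenly spaced points inside the members and 4.12% of the shorter spanned promoters. The PU.1 core GAGGAAGT lay in 2.90%, beside 3.35% and 1.84%, and the octamer ATGCAAAT, read by POU2F2 and POU2AF1 in B cells, in 2.32%, beside 2.43% and 2.02%. One-promoter regions thus did not stand out from other super-enhancers in these letters.

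The 6-letter motifs separated edge from interior windows more than they separated the edge windows of the classes. The E-box CAGCTG lay in 25.1% of edge and 18.9% of interior windows, and in 22.7 to 26.4% of edge windows across classes. The ETS core GGAAGT, which the PU.1 core contains, lay in 24.8 and 19.3%, with 24.3 to 25.7% across classes. The TATA box letters TATAAA lay in 14.9 and 23.0%, with 14.9 to 21.0% across classes. For AP-1, PU.1, the octamer and IRF the classes differed more than edge and interior did. Their edge shares across classes were 6.76 to 8.55, 2.90 to 4.11, 1.63 to 3.62 and 4.31 to 5.92%. All were searched on both strands. GC content also differed, at 50.1 and 47.4%, and its part in these shares was not tested. The IRF motif lay in 4.31% of edge and 5.36% of interior windows. The NF-kB, MEF2 and CTCF sequences lay in at most 2 of 1554 edge windows each, too few to compare.

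Non-coding genes also lay in these regions, although they played no part in the rule. The TSS of at least 1 lncRNA lay inside 420 members (54.1%, 50.5 to 57.5), beside 46.6% of regions with 2 or more promoters, 44.7% of those over a gene end, 43.8% of those without a gene and 23.5% of those inside gene bodies. Within 1 kb of the spanned TSS, 143 members (18.4%) had a lncRNA start on the opposite strand, against 12.3% of all protein-coding genes. A miRNA gene lay in 43 members (5.53%), a share that was not counted over the other classes. Members had neighbours about as often as other classes, with 361 (46.5%) within 50 kb of another super-enhancer against 41.1 to 47.6%. A further super-enhancer overlapped 96 of the spanned genes (12.4%), a share that was not counted over all genes.

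Chromosomes differed in how many of their super-enhancers were of this kind. The share went from 5 of 43 on chromosome 13 (11.6%, 5.07 to 24.5) to 88 of 241 on chromosome 1 (36.5%, 30.7 to 42.8). Chromosome 2, with 41 of 196 (20.9%), and chromosome 14, with 20 of 100 (20.0%), were also low. On each of the other chromosomes the interval included the 29.7% of the whole table. The number of TSS a region can hold depends on local gene spacing, whose part in these shares was not tested.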

How the data were processed

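CUT&RUN for 3 histone marks was performed in OCI-Ly7 clones of 4 genotypes. Per the study's methods, reads were aligned to hg38 in the nf-core cutandrun pipeline against IgG controls, depth was scaled to promoter reads, and SEACR peaks and MACS2 summits were called; the authors then applied ROSE to WT H3K27ac after taking out TSS of non-coding RNA, at default settings with an exclusion of 2500 bp around TSS. The file header gives a stitching distance of 12.5 kb. The deposited signal is the ROSE signal of the 2 pooled WT libraries per region; the header does not state its unit, and no read depth or per-library value was used. All 2615 deposited rows were above the cutoff, and the other deposited columns gave the rank, the number of constituents and their summed length.

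TSS, genes and exons were taken from GENCODE version 44 on hg38 for chromosomes 1 to 22 and X; all 2615 regions ended inside their chromosome. Alternatives were other TSS definitions, moved edges, the regions above the median rank, other length classes and other CpG or motif rules. Named members were the 15 highest in signal, 5 densest, 3 longest, 3 shortest, 5 with the longest stretch on each side, and all list genes with a TSS in a member; the CD genes, which were grouped by symbol, and the regions next to the edge of the rule were named besides. Some genes that this rule names are not reported here. Members and lists were chosen with earlier results of these data known. Class assignment was tested on simulated regions. Python 3.11.15, pandas 2.3.3, numpy 2.4.6, scipy 1.17.1, pysam 0.24.0, matplotlib 3.10.9 and samtools 1.23.1 were used.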

Additional observations from a re-analysis of the deposited data

How the results depend on the processing

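Over 7 results 21 alternatives were tried. A count was taken as moved beyond 1.5 times, and a share, median or difference beyond a 95% interval for counting error; by that measure 14 did not move and 7 did. The number of one-promoter regions was 212 when genes of every type were counted and 393 among the 1307 regions of highest signal, since fewer regions enter; it was 1158 with the TSS of every protein-coding transcript, 828 with the canonical TSS, and 774 or 791 with edges moved in or out. Of the 828, 715 were among the 777, and of the 1158, 608. The CpG island share was 78.4% with the canonical TSS (65.5% of all genes), 50.1% with a CpG ratio of at least 0.75 and GC of at least 55% (40.0% of all genes), and 67.8% with a longer window (58.1%). The 6-letter core GGAAGT in place of the PU.1 core was found in 24.8% of edge windows, as a shorter motif is. With only those 1307 regions, 7.14% of B-cell list genes were spanned singly, against 1.97% of all genes, and with every transcript start, an alternative added after seeing the data, 24.1%. The length-matched log2 difference from gene-body regions was -0.01 with 10 length classes and -0.04 among the 1307 regions, beside 0.02. The share with the longer side on the gene side ran from 63.6 to 68.0%.

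No paired analysis was possible because the 2 WT libraries were pooled into 1 column; leaving out a replicate and comparing C, K and CK with WT need values per library and were not run from this table. Depth per library is unknown here, so no error on a signal was available, and regions below the cutoff were not analysed here.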
